A study of Mus musculus with 24 samples.

Results

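The genes described here are 9 genes of MHC class I antigen presentation, taken by name from the 55471 genes of the count tables: the heavy chains H2-K1 and H2-D1, the light chain B2m, the transporter subunits Tap1 and Tap2, the loading factor Tapbp, the inducible proteasome subunits Psmb8 and Psmb9, and the transactivator Nlrc5. All 9 had a row in the tables and passed the filter on low counts. They were measured by RNA-seq in 24 libraries of 3T3 mouse embryonic fibroblasts (MEFs), an immortalized fibroblast line, in 8 groups of 3 libraries. There were 4 genotypes: wild-type 3T3 cells, Lkb1-/- MEFs, which lack the kinase LKB1 encoded by Stk11, and clones A1 and A2 of Lkb1-/-/Crtc2-/- MEFs, which in addition lack CRTC2, a coactivator of CREB that LKB1 signalling restrains. Each was left untreated or given IL-1β, an inflammatory cytokine, at 0.1 ng/mL for 6 hours. The Lkb1-/-/Crtc2-/- clones were single-cell CRISPR clones made from the Lkb1-/- MEFs, so each stands for 1 clone, the Lkb1-/- libraries are the common reference for both, and what the deletion does cannot be told apart from what sets 1 clone off from its parent line. The labels number the libraries of a group as replicates without naming separate cultures, so the p-values measure the spread between these libraries.

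MHC class I molecules display peptides from proteins made inside the cell on its surface, where CD8 T cells read them. Proteins are cut by the proteasome, in which Psmb8, Psmb9 and Psmb10 replace the standard catalytic subunits Psmb5, Psmb6 and Psmb7 when a cell makes the immunoproteasome. The peptides are carried into the endoplasmic reticulum by the TAP1 and TAP2 heterodimer, and loaded with the help of tapasin (Tapbp) onto a heavy chain that is paired with β2-microglobulin (B2m). Most nucleated cells make these genes at some level and raise them after interferon, through factors that include IRF1 and NLRC5, the latter of which joins a complex of RFX, CREB/ATF and NF-Y factors on the promoters. Fibroblasts are known for a low resting level of the immunoproteasome and of TAP.

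Of the 9 genes, 7 lie on chromosome 17 (GRCm38). Tapbp (33915899 to 33929292, plus strand) and H2-K1 (33996017 to 34000347, minus strand) are followed by Psmb9 (34181987 to 34187764, minus strand), Tap1 (34187553 to 34197225, plus strand), Psmb8 (34197721 to 34201454, plus strand) and Tap2 (34203527 to 34216321, plus strand), and H2-D1 lies further along (35262730 to 35267499, plus strand). Tap1 and Psmb9 are transcribed away from each other and overlap at their starts, and stranded counts were used. B2m lies on chromosome 2 (122147686 to 122153083, plus strand) and Nlrc5 on chromosome 8 (94434356 to 94527272, plus strand).

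The promoters of the members show which of the elements named above are near their starts. RefSeq (GRCm38.p6) gave a window from 250 bases before to 50 bases after the start for 7 of the 9 members, and the part before the start is printed here for the heavy chains, the light chain and the divergent Tap1 and Psmb9 start. Capitals mark matches, on either strand, to the core of an interferon regulatory factor element (TTTCNNTT), to an NF-κB motif (GGGNN followed directly by TTNCC) and to the core of a CREB element (CRE core, TGACG). The windows are at chr17:34000348-34000597 (minus strand) for H2-K1, chr17:35262844-35263093 for H2-D1, chr2:122147437-122147686 for B2m and chr17:34187306-34187555 for Tap1 (all plus strand).
H2-K1: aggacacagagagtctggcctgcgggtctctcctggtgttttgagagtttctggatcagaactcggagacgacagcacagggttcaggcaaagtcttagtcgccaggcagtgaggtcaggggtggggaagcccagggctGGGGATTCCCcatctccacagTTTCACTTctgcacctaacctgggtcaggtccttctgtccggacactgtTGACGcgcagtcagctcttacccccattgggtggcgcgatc
H2-D1: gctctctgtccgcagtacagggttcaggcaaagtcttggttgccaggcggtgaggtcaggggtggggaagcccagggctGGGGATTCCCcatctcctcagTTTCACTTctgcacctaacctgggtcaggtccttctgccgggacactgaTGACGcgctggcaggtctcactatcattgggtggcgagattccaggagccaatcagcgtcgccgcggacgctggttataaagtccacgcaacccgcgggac
B2m: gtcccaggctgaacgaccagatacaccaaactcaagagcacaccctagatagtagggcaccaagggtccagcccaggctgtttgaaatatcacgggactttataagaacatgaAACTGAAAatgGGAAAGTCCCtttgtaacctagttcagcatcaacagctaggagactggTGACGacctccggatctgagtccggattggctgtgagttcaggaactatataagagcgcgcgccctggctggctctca
Tap1: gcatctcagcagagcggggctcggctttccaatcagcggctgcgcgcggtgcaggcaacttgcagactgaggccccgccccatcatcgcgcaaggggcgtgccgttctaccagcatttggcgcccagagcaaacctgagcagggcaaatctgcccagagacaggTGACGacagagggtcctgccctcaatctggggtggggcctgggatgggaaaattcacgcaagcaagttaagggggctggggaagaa
The full windows of H2-K1, H2-D1 and B2m each held 1 NF-κB match and 1 IRF core match, with the NF-κB match farther from the start in the heavy chains and the IRF match farther in B2m. Of all 32851 RefSeq promoters, 4.79% held an NF-κB match and 23.9% an IRF core match. H2-K1 and H2-D1 had 1 CRE core each and B2m 2, against a match in 20.8% of all promoters. The H2-K1 and H2-D1 windows aligned over 228 columns with 90.4% identity. The Tap1 and Psmb9 windows overlap by 275 bases, held the same single CRE core, and had no match to the IRF core or the NF-κB motif. The windows of Psmb8 and Tapbp had none of these 3 motifs. A match describes the letters only.

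Levels are given as CPM, counts scaled to a common library size with TMM factors. Values per kilobase use the joined length of all annotated exons of a gene, such as 3660 bases for Psmb9. The size of levels and ratios between genes depends on that length. Per kilobase of exon, B2m was by far the most abundant of the 9, at 502 to 797 CPM per kb over the 8 group means, ahead of H2-D1 (42.8 to 82.3), H2-K1 (40.8 to 74.7) and Tapbp (46.6 to 91.8). Tap2 (1.58 to 4.66), Tap1 (0.431 to 1.68), Nlrc5 (0.266 to 2.27) and Psmb8 (0.186 to 2.72) were much lower on this scale, and Psmb9 (0.0657 to 0.467) was the lowest. The least expressed member, Psmb9, had 3 to 122 counts in a library and Psmb8 13 to 508, while B2m had 16740 to 33558. Depth was 38842901 to 48594394 read pairs on genes per library. The group means spanned 14.6-fold for Psmb8, 8.53-fold for Nlrc5 and 7.11-fold for Psmb9, but only 1.59-fold for B2m, 1.83-fold for H2-K1, 1.92-fold for H2-D1 and 1.97-fold for Tapbp. In such bulk libraries, fewer expressing cells and less RNA per cell cannot be told apart.

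**Figure D1:**
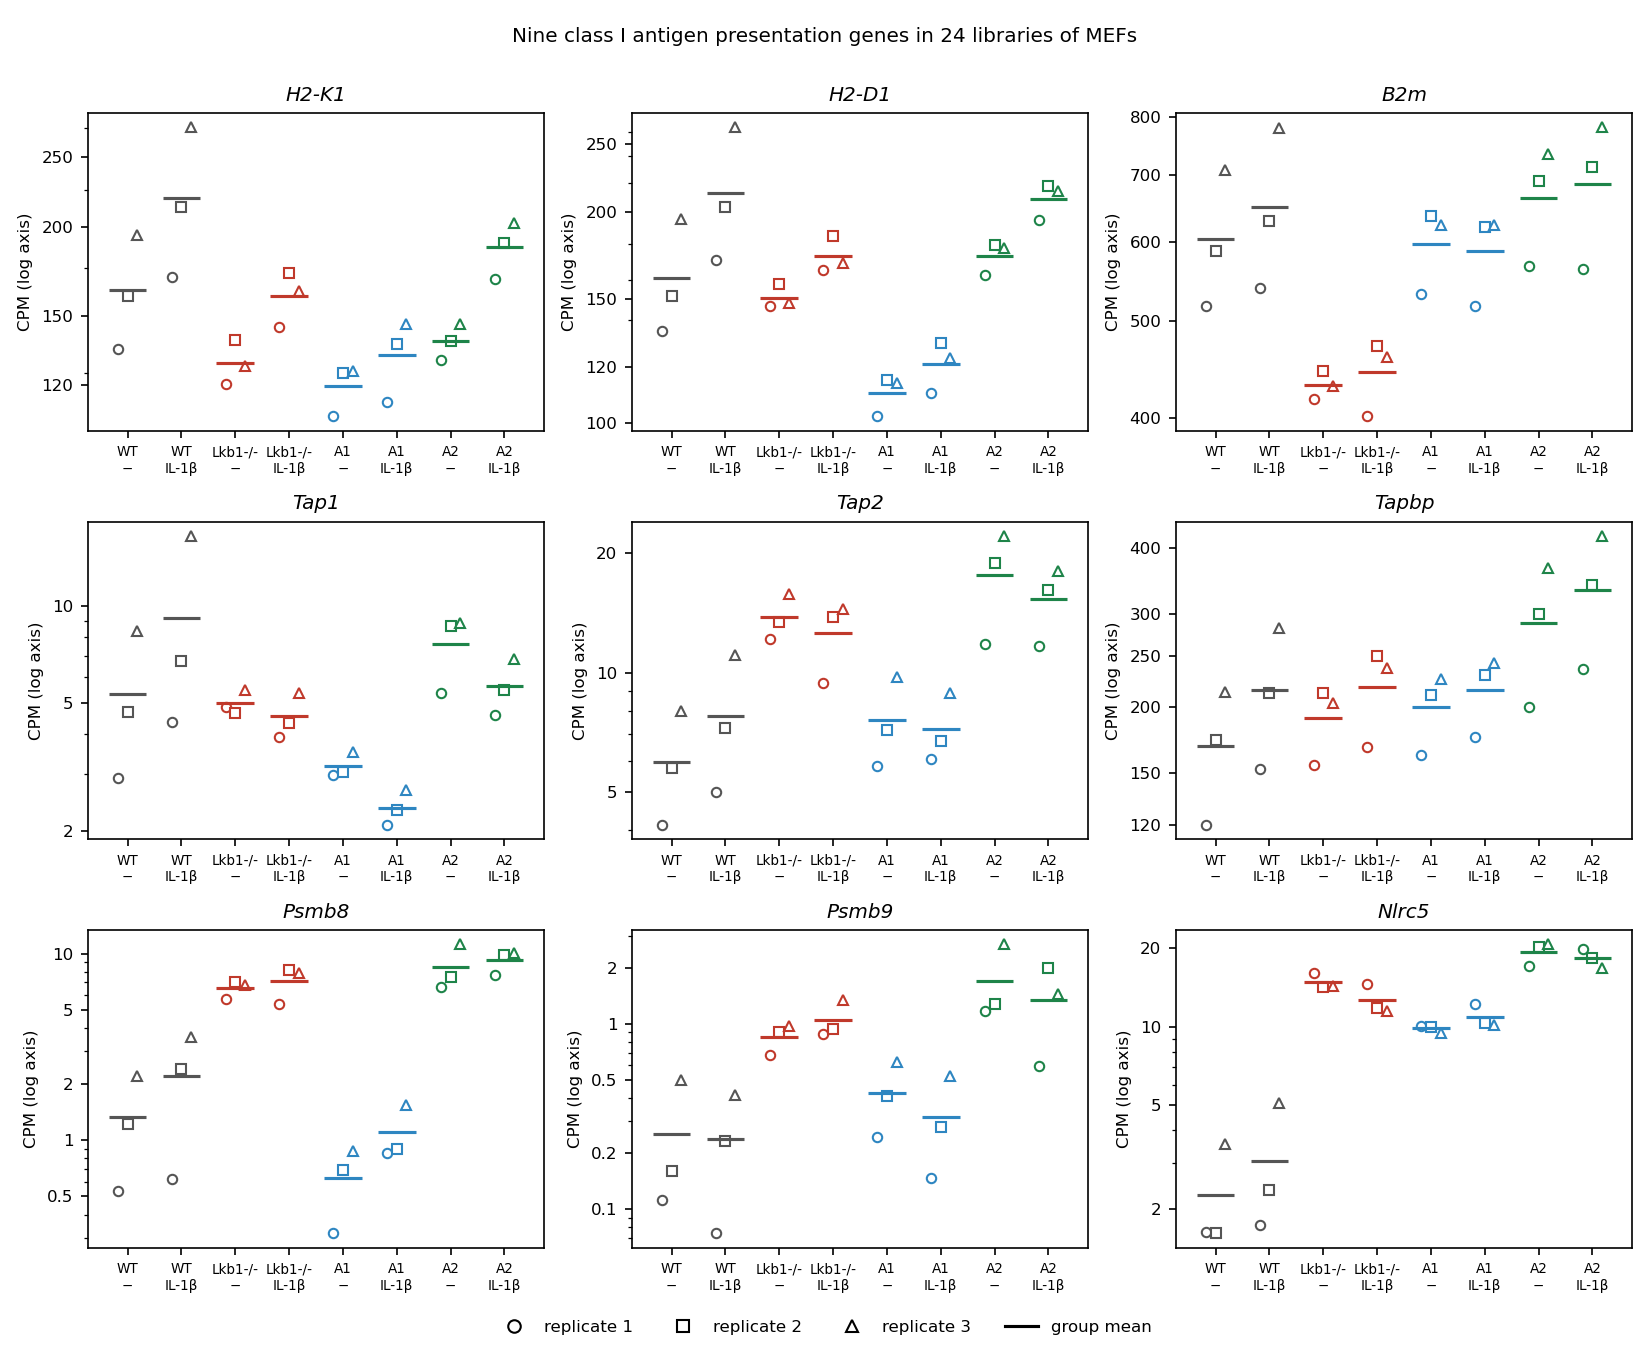
CPM on a log axis for each of the 9 genes in the 24 libraries, with 1 symbol per replicate number, a bar for the group mean (n = 3) and 1 color per genotype ("−" is untreated). Nlrc5 and Psmb8 separate the Lkb1-/- and clone A2 libraries from wild-type, clone A1 sits with wild-type for Psmb8 and between them for Nlrc5, and replicate 3 is the highest wild-type library in every panel.

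Before the comparisons, the state of the libraries bears on these genes. Stk11 fell from 84.6, 85.5 and 87.9 CPM in untreated wild-type MEFs to 18.7, 16.96 and 16.3 CPM in Lkb1-/- MEFs, and was 17.4 to 23.2 CPM in the libraries of the clones. Crtc2 transcripts, which a frameshift need not remove, were 41.1 to 56.4 CPM in the clones and 79.1 to 84.6 CPM in Lkb1-/- MEFs. Fibroblast markers summed to 5716 to 9935 CPM per library, with Thy1 and Fap at no more than 3 and 8 counts. Single fibroblast markers differed widely between untreated wild-type and Lkb1-/- MEFs, with 4 higher and 3 lower of 8 tested in Lkb1-/- (beside 30.1% and 25.8% of all genes), among them Dcn (0.411 to 218 CPM), Pdgfra (4.58 to 342 CPM) and Col1a2 (780.1 to 63.0 CPM). Leukocyte markers summed to 2.58 to 7.17 CPM with Ptprc at no more than 1 count, and epithelial markers summed to 0.154 to 0.499 CPM. The 1 epithelial marker tested, Epcam, had at most 13 counts. Without both wild-type replicate 3 libraries it was called higher in Lkb1-/- than in wild-type MEFs, at 2.62 untreated and 1.82 in IL-1β on the log2 scale (beside 52.8% and 53.7% of all genes called). Endothelial markers summed to 0.370 to 0.678 CPM in wild-type libraries and to 2.06 to 3.85 CPM in those of the other genotypes, most of it Kdr. The leukocyte sum was 4.78 to 6.39 CPM in the untreated clones and 3.21 to 3.94 CPM in untreated Lkb1-/- MEFs, without overlap, and 2 of its 3 tested genes were higher in each clone untreated (beside 18.9% and 17.1% of all genes) and 1 of 3 in IL-1β (beside 19.4% and 17.1%). The fibroblast sum was highest in untreated clone A1, at 9034 to 9935 CPM. These lists moved with genotype, and their part in the results was not tested.

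The libraries labelled wild-type replicate 3 stood apart in both treatments. The sum of 24 interferon-stimulated genes was 209.9, 275 and 678 CPM in untreated wild-type MEFs and 376, 611 and 1523 CPM after IL-1β, against 167 to 427 CPM in the 18 libraries of the other genotypes. Wild-type replicate 2 in IL-1β, at 611 CPM, was thus also above all libraries of the other genotypes. All 9 class I genes were highest in replicate 3 of the wild-type group in both treatments. Over all 8 groups, the interferon-stimulated sum was lowest in replicate 1, and so were 7 to 9 of the 9 class I genes within each group. How many of all genes were highest or lowest in these replicates was not counted. Because wild-type replicate 3 stood apart, the members in Lkb1-/- against wild-type MEFs, and the counts of called members, are also given without both wild-type replicate 3 libraries. Ifnb1 and Ifng had at most 1 count in any library. The part of this interferon-stimulated level in the differences below was not tested.

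**Figure D2:**
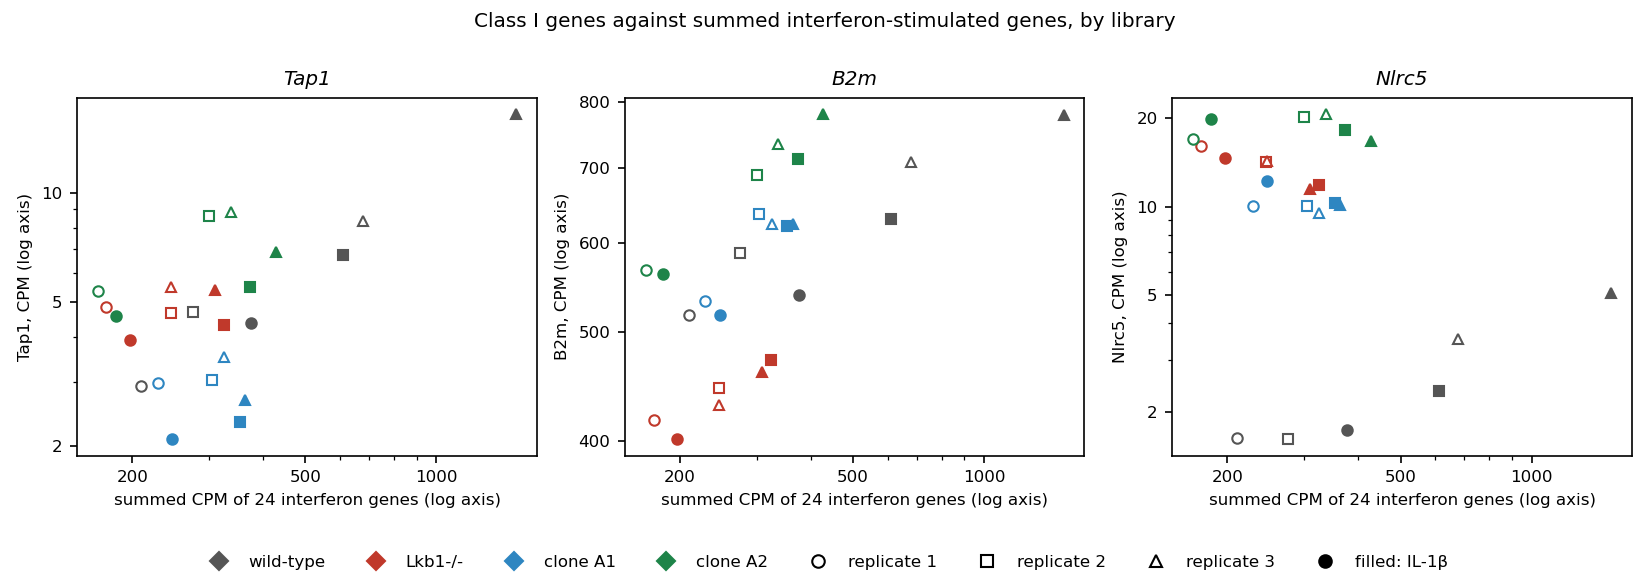
CPM of Tap1, B2m and Nlrc5 against the summed CPM of 24 interferon-stimulated genes in the 24 libraries, both on log axes (color: genotype; symbol: replicate number; filled: IL-1β). The wild-type replicate 3 libraries, at 678 and 1523 CPM, lie to the right of all libraries of the other genotypes, and within wild-type all 3 genes are highest there.

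The first comparison asks how these genes differ between Lkb1-/- and wild-type MEFs. Since the labels name no more than 1 line of each, the genotype and the line cannot be told apart. In untreated Lkb1-/- MEFs, the transactivator Nlrc5, both inducible proteasome subunits and Tap2 were higher than in wild-type MEFs, by 2.33- to 6.64-fold, while the light chain B2m and the heavy chain H2-K1 were lower, at 0.714 and 0.790 times the wild-type level. H2-D1, Tap1 and Tapbp were not called. Thus 4 of 9 genes were higher and 2 lower at an FDR under 0.05, beside 55.9% of the 17522 genes tested that were called in this comparison (30.1% higher and 25.8% lower), so the share of members called, 66.7%, was near that of all genes. With a log2 fold change above 1 added to the rule, 4 of the 9 were higher and none lower, against 15.9% and 7.59% of all genes. Without both wild-type replicate 3 libraries, 4 were higher and 1 lower (B2m), beside 52.8% of all genes called. The median log2 fold change was 0.17 over the members and 0.04 over all genes. The libraries of the 2 groups did not overlap for 5 of the 9 members untreated, beside 64.8% of all genes. In IL-1β they did not overlap for 4 of 9, beside 62.6%.

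Nlrc5, which drives transcription of class I genes, had 1.63, 1.61 and 3.55 CPM in the untreated wild-type libraries and 16.1, 14.2 and 14.3 CPM in the Lkb1-/- libraries. Each Lkb1-/- library was at least as far above the highest wild-type library as the whole spread of the wild-type group. The log2 fold change was 2.73 ± 0.29 (SE; edgeR FDR = 4.72e-08), and 3.14 (FDR = 1.13e-11) without wild-type replicate 3. After IL-1β the levels were 1.73, 2.36 and 5.09 CPM in wild-type and 14.6, 11.8 and 11.5 CPM in Lkb1-/- MEFs, again without overlap, with a log2 fold change of 2.05 ± 0.28 (edgeR FDR = 1.77e-06), and 2.60 (FDR = 1.12e-10) without both wild-type replicate 3 libraries.

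Psmb8, the inducible subunit that takes the place of Psmb5, had 0.536, 1.22 and 2.22 CPM in untreated wild-type MEFs and 5.70, 7.08 and 6.79 CPM in Lkb1-/- MEFs. The groups did not overlap, and the difference was 2.32 ± 0.46 on the log2 scale (edgeR FDR = 1.84e-04). After IL-1β the wild-type libraries had 0.617, 2.40 and 3.57 CPM and the Lkb1-/- libraries 5.40, 8.12 and 7.84 CPM, a difference of 1.70 ± 0.44 (edgeR FDR = 0.00215). Without both wild-type replicate 3 libraries the differences were 2.83 (FDR = 3.59e-05) and 2.19 (FDR = 2.75e-04).

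Psmb9, which replaces Psmb6, was scarce in all libraries, at 0.112, 0.161 and 0.496 CPM in untreated wild-type MEFs and 0.679, 0.905 and 0.976 CPM in Lkb1-/- MEFs. Its log2 fold change was 1.76 ± 0.59 (edgeR FDR = 0.0148), with no call when wild-type replicate 1 (1.39, FDR = 0.0786) or 2 (1.52, FDR = 0.0666) was left out. The value without the wild-type replicate 3 libraries was 2.56 (FDR = 0.00278). After IL-1β it was 2.13 ± 0.59 (edgeR FDR = 0.00386), or 2.71 (FDR = 0.00146) without those libraries, and the 2 groups again did not overlap.

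Of the transporter subunits, Tap2 was called higher untreated and Tap1 was not. Tap2 had 4.13, 5.73 and 8.01 CPM in untreated wild-type MEFs and 12.2, 13.5 and 15.8 CPM in Lkb1-/- MEFs, without overlap, and a log2 fold change of 1.22 ± 0.29 (edgeR FDR = 0.00131), or 1.43 (FDR = 3.04e-04) without both wild-type replicate 3 libraries. Tap1 had 2.93, 4.67 and 8.37 CPM in wild-type and 4.84, 4.64 and 5.48 CPM in Lkb1-/- MEFs, which lie inside the wild-type range, and a log2 fold change of -0.09 ± 0.37 that was not called (0.33, FDR = 0.267, without both wild-type replicate 3 libraries). In IL-1β, the wild-type libraries had 4.37, 6.72 and 16.5 CPM of Tap1 and the Lkb1-/- libraries 3.91, 4.32 and 5.37 CPM. The difference of -1.02 ± 0.37 (edgeR FDR = 0.0217) came with overlapping groups, and it was -0.32 (FDR = 0.394) without wild-type replicate 3 of that group alone and -0.33 (FDR = 0.265) without the wild-type replicate 3 libraries of both treatments. Tap1 also lost its call without Lkb1-/- replicate 1 (-0.92, FDR = 0.0725) or 2 (-0.98, FDR = 0.0607) and with only the groups compared (-0.98, FDR = 0.0712). Tap2 in IL-1β, at 4.99, 7.26 and 11.1 CPM against 9.43, 13.8 and 14.5 CPM, was called at 0.70 ± 0.29 (edgeR FDR = 0.0459). This call was lost without any 1 of 4 of the 6 libraries (wild-type replicates 1 or 2, Lkb1-/- replicates 2 or 3), where the value was 0.46 to 0.65, and with unstranded counts (0.73), and it was 1.00 (FDR = 0.00502) without both wild-type replicate 3 libraries. Per kilobase, the ratio of Tap2 to Tap1 was 2.05, 1.78 and 1.39 in untreated wild-type and 3.65, 4.20 and 4.18 in untreated Lkb1-/- MEFs.

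B2m, the chain that all class I molecules share, had 518, 588 and 708 CPM in untreated wild-type MEFs and 418, 446 and 430 CPM in Lkb1-/- MEFs. All 3 Lkb1-/- libraries were below all wild-type libraries, with a log2 fold change of -0.49 ± 0.14 (edgeR FDR = 0.00575). After IL-1β the levels were 539.7, 630.3 and 779.9 CPM against 402, 473 and 461 CPM, a log2 fold change of -0.55 ± 0.14 (edgeR FDR = 0.0023), and without wild-type replicate 3 the differences were -0.42 (FDR = 0.00895) and -0.43 (FDR = 0.00754).

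H2-K1 had 135, 160.1 and 195 CPM in untreated wild-type MEFs and 121, 139 and 128 CPM in Lkb1-/- MEFs. The groups overlapped, and the log2 fold change of -0.34 ± 0.14 was close to the threshold (edgeR FDR = 0.0499). The call was lost in 5 of 6 fits that left out 1 library and with upper-quartile scaling (-0.26), and without wild-type replicate 3 the value was -0.25 (FDR = 0.156, or 0.0712 without the replicate 3 libraries of both treatments). After IL-1β, at 169.9, 213 and 275 CPM against 145, 172 and 163 CPM, the difference was -0.46 ± 0.14 (edgeR FDR = 0.0096), and it was -0.29 without wild-type replicate 3, which was not called when that library alone was left out (FDR = 0.0663) and was called when the replicate 3 libraries of both treatments were (FDR = 0.037).

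H2-D1, the other classical heavy chain, was not called: 135, 152 and 196 CPM against 147, 158 and 148 CPM in untreated MEFs gave -0.09 (95% interval -0.36 to 0.17), and the value in IL-1β was -0.30 ± 0.13 (edgeR FDR = 0.0512), which was called with a replicate block (-0.28), without the filter on low counts (-0.27) and with unstranded counts (-0.35), and without both wild-type replicate 3 libraries the values were 0.01 untreated and -0.14 in IL-1β. Tapbp, which edits the bound peptides, was not called either, with 119.9, 174 and 214 CPM against 156, 213 and 204 CPM in untreated MEFs and a log2 fold change of 0.17 (95% interval -0.36 to 0.71), or 0.32 without both wild-type replicate 3 libraries, and it was called with a replicate block (0.20). After IL-1β 4 of 9 members were higher and 3 lower, beside 57.4% of all genes called (30.2% higher and 27.1% lower), and without both wild-type replicate 3 libraries 4 were higher and 2 lower, beside 53.7%. With a log2 fold change above 1 added to the rule, 3 were higher and 1 lower (Tap1) in IL-1β, beside 16.4% and 8.06% of all genes.

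**Figure D3:**
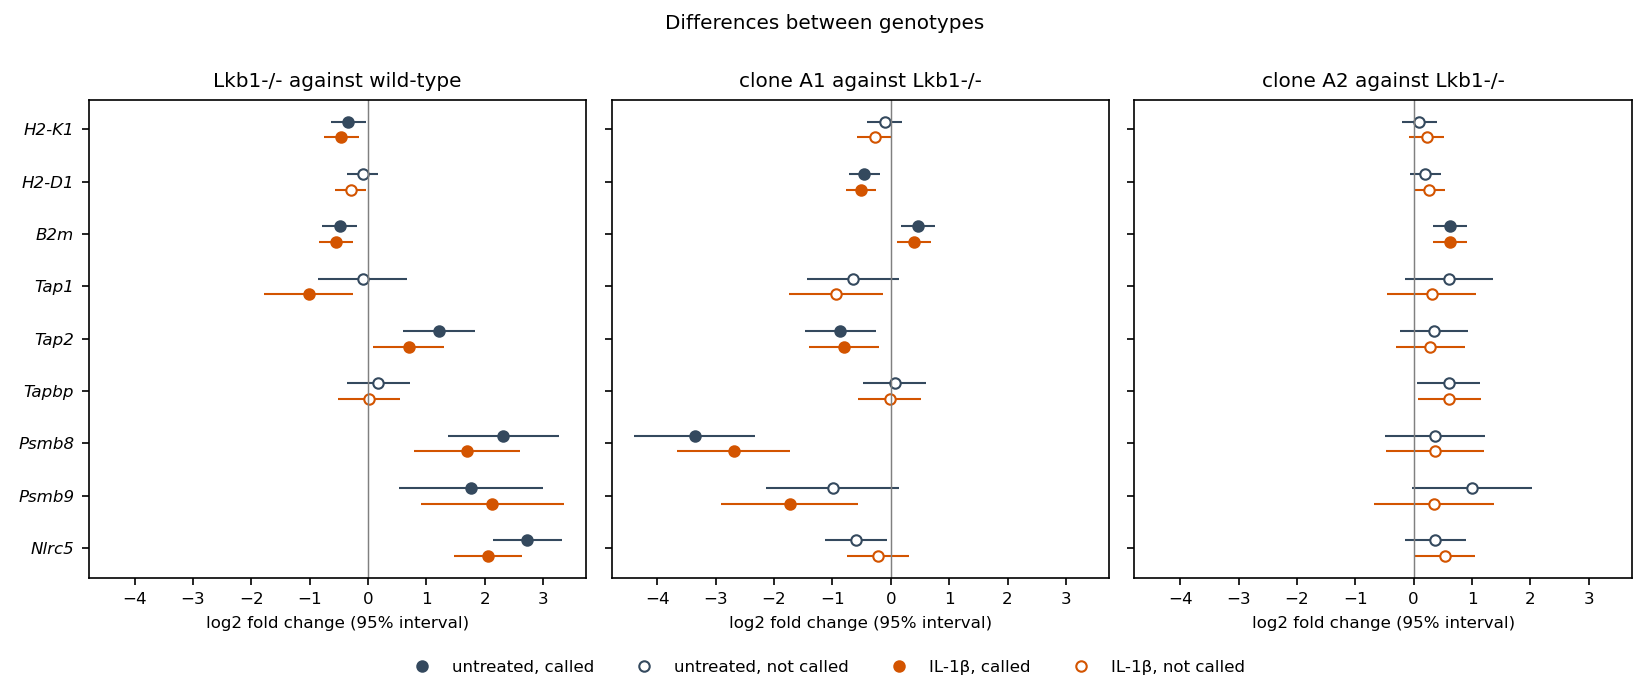
Log2 fold changes with 95% intervals of the 9 genes for Lkb1-/- against wild-type MEFs and for each Lkb1-/-/Crtc2-/- clone against Lkb1-/- MEFs, untreated (dark) and in IL-1β (orange); filled points passed an edgeR FDR of 0.05. Nlrc5, Psmb8, Psmb9 and Tap2 lie to the right of 0 in the first panel, Psmb8 has the lowest values of the clone A1 panel at -3.36 and -2.69, and only B2m is filled in the clone A2 panel.

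The second comparison asks which of these differences were also present in cells that lack CRTC2. In clone A1, Psmb8, Tap2 and H2-D1 were lower than in Lkb1-/- MEFs in both treatments and B2m was higher; in clone A2, B2m alone was called, and it was higher. The clone A2 count depends on the fit: with a replicate block 5 members were higher untreated (B2m, Tap1, Tap2, Tapbp and Psmb9, at 0.31 to 0.95) and 6 in IL-1β (H2-K1, H2-D1, B2m, Tap2, Tapbp and Nlrc5, at 0.22 to 0.61), beside 45.9% and 46.6% of all genes. Without the filter on low counts 4 and 4 were called (beside 15.1% and 15.3%), and with only the groups compared 4 and 3 (beside 28.5% and 27.3%). In untreated clone A1, 7 were called in each of these fits, beside 16.4% to 48.1% of all genes. Against 35.3% of all genes called in untreated clone A1, 4 of 9 members were called (1 higher, beside 18.9% of all genes, and 3 lower, beside 16.4%), and against 36.7% in IL-1β, 5 of 9 were (1 higher, beside 19.4%, and 4 lower, beside 17.3%). In clone A2 1 of 9 was called in each treatment, against 32.3% and 32.8% of all genes (17.1% higher in both). The median log2 fold changes of the members were -0.60 and -0.51 in clone A1 and 0.37 and 0.35 in clone A2, and those of all genes were 0.02, 0.01, 0.02 and 0.01 in the same order. Groups did not overlap for 7 and 6 of 9 members in clone A1, beside 49.4% and 44.9% of all genes. In clone A2 this held for 4 and 3 of 9, beside 40.7% and 39.4%. These comparisons use the same Lkb1-/- libraries as each other and as the comparison with wild-type, so the values stand side by side without a test of their likeness.

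Psmb8 in clone A1 was at 0.317, 0.696 and 0.873 CPM untreated and 0.858, 0.898 and 1.55 CPM in IL-1β, below every Lkb1-/- library. The log2 fold changes were -3.36 ± 0.50 (edgeR FDR = 1.95e-05) and -2.69 ± 0.47 (FDR = 1.07e-04), and they were -3.68 to -3.05 and -2.99 to -2.51 over all alternative fits. In clone A2 the gene was at 6.61, 7.48 and 11.2 CPM and 7.68, 9.77 and 10.1 CPM, and the difference from Lkb1-/- MEFs was 0.37 in both treatments, with 95% intervals of -0.48 to 1.22 and -0.48 to 1.21. Against wild-type MEFs, Psmb8 in clone A1 was near the threshold, at -1.05 untreated (95% interval -2.14 to 0.05, edgeR FDR = 0.0995) and -0.99 in IL-1β (FDR = 0.0821). It was called lower in both treatments with a replicate block (-1.02 and -0.94) and without the filter on low counts (-1.07 and -0.98). The groups overlapped in both treatments. Wild-type replicate 3, the highest of its group, enters all these values, at 2.22 CPM untreated and 3.57 CPM in IL-1β against 1.22 and 2.40 CPM in replicate 2.

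Psmb9 in clone A1 was at 0.244, 0.408 and 0.620 CPM untreated, where the difference of -0.997 ± 0.55 was not called (edgeR FDR = 0.174), but was with a replicate block (-1.06), without the filter on low counts (-1.01) and with only the groups compared (-1.03). The groups did not overlap, as for 49.4% of all genes. In IL-1β it was at 0.147, 0.276 and 0.524 CPM, lower by -1.73 ± 0.57 on the log2 scale (edgeR FDR = 0.0198), a call lost without clone A1 replicate 1 (-1.40, FDR = 0.0902) or 2 (-1.65, FDR = 0.0688) or Lkb1-/- replicate 3 (-1.52, FDR = 0.0686). In clone A2, Psmb9 was at 1.17, 1.27 and 2.69 CPM untreated, with a difference of 1.00 ± 0.50 that was called with a replicate block (0.95) and without the filter (0.98), and otherwise not.

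Tap2 in clone A1 was at 5.83, 7.15 and 9.77 CPM untreated and 6.06, 6.72 and 8.91 CPM in IL-1β, below all Lkb1-/- libraries of the same treatment. The log2 fold changes were -0.86 ± 0.29 (edgeR FDR = 0.0242) and -0.80 ± 0.29 (FDR = 0.0357). These calls were lost in 3 and 4 of 6 fits without 1 library: untreated without clone A1 replicates 1 (-0.71) or 2 (-0.83) or Lkb1-/- replicate 3 (-0.75), and in IL-1β without clone A1 replicates 1 (-0.69) or 2 (-0.75) or Lkb1-/- replicates 2 (-0.73) or 3 (-0.68) or with unstranded counts (-0.72). Tap1 was at 2.98, 3.05 and 3.52 CPM in untreated clone A1 and at 2.08, 2.33 and 2.67 CPM in IL-1β, below every Lkb1-/- library of the same treatment, but the differences of -0.65 ± 0.37 and -0.94 ± 0.38 were not called (edgeR FDR = 0.197 and 0.0609). Both were called with a replicate block (-0.66 and -0.94), without the filter on low counts and with only the groups compared, and the value in IL-1β also by DESeq2 (-0.95).

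H2-D1 was at 102, 115 and 114 CPM in untreated clone A1, below the 147 to 158 CPM of the Lkb1-/- libraries, with a log2 fold change of -0.45 ± 0.13 (edgeR FDR = 0.00805). In IL-1β, at 110.3, 130.1 and 124 CPM, it was lower by -0.51 ± 0.13 (FDR = 0.00308). Both calls held in every alternative fit. H2-K1 in clone A1, at 109, 125 and 126 CPM untreated, was not called (-0.11, 95% interval -0.41 to 0.19). In IL-1β it was called with a replicate block (-0.28) and without the filter on low counts (-0.27). Per kilobase, the ratio of H2-D1 to H2-K1 was 1.39, 1.29 and 1.32 in untreated Lkb1-/- MEFs, 1.07, 1.05 and 1.03 in clone A1, 1.42, 1.48 and 1.38 in clone A2 and 1.14, 1.08 and 1.14 in wild-type MEFs.

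B2m was the member called in the same direction in both clones. It was at 532, 637 and 624 CPM in untreated clone A1 and 567, 690.1 and 734 CPM in untreated clone A2, above the 418 to 446 CPM of the Lkb1-/- libraries, with log2 fold changes of 0.47 ± 0.14 (edgeR FDR = 0.0124) and 0.62 ± 0.14 (FDR = 0.00184). In IL-1β they were 0.40 ± 0.14 (FDR = 0.0306) and 0.62 ± 0.14 (FDR = 0.00173), and the value in clone A1 lost its call without Lkb1-/- replicate 1 (0.33) or clone A1 replicates 2 (0.36) or 3 (0.38). Untreated, it lost its call without clone A1 replicate 2 (0.42, FDR = 0.0533). Against wild-type MEFs, B2m was not called in either clone, with untreated values of -0.02 (95% interval -0.31 to 0.28) in clone A1 and 0.14 (-0.16 to 0.43) in clone A2. Per kilobase, B2m stood at 6.12, 6.03 and 5.79 times the sum of H2-K1 and H2-D1 in untreated wild-type, 4.96, 4.78 and 4.96 in Lkb1-/-, 8.09, 8.50 and 8.34 in clone A1 and 6.15, 6.89 and 7.20 in clone A2 MEFs.

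Nlrc5 was far above wild-type in both clones, and against Lkb1-/- MEFs its call depended on the fit. It was not called untreated in either clone (-0.60 ± 0.26, edgeR FDR = 0.0767, in clone A1 and 0.37 ± 0.25, FDR = 0.284, in clone A2), but with only the groups compared it was lower in clone A1 (-0.63) and higher in clone A2 (0.36). With a replicate block (-0.60) or without the filter on low counts (-0.61) it was lower in untreated clone A1, and under all 3 of these fits it was higher in clone A2 in IL-1β (0.50 to 0.53). It was at 10.02, 10.01 and 9.49 CPM in untreated clone A1 and 17.04, 20.2 and 20.7 CPM in untreated clone A2, and the difference from wild-type was 2.13 ± 0.29 (edgeR FDR = 1.63e-06) and 3.10 ± 0.29 (FDR = 6e-09) on the log2 scale. In order of its 8 group means, Nlrc5 went from both wild-type groups (2.26 and 3.06 CPM) through clone A1 (9.84 and 10.9), Lkb1-/- (12.7 in IL-1β and 14.9 untreated) and clone A2 (18.3 in IL-1β and 19.3 untreated). Of the 7 neighbouring pairs in this order, 3 had libraries that did not overlap. These were wild-type in IL-1β and untreated clone A1, clone A1 untreated and in IL-1β, and untreated Lkb1-/- and clone A2 in IL-1β. The order of Psmb8 was clone A1, wild-type, Lkb1-/- and clone A2, and of its 7 neighbouring pairs only wild-type in IL-1β (2.20 CPM) and untreated Lkb1-/- MEFs (6.52 CPM) did not overlap. For H2-K1, Tap2 and Tapbp no neighbouring pair was without overlap. Such pairs were not counted over all genes, so they describe the order of each member only.

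Tapbp was at 163, 211 and 226 CPM in untreated clone A1 and 200.3, 301 and 367 CPM in untreated clone A2. Against wild-type MEFs it was called in clone A2 (untreated 0.77 ± 0.26, edgeR FDR = 0.0138; in IL-1β 0.62 ± 0.26, FDR = 0.043), and the call was lost without wild-type replicate 1 or clone A2 replicate 3 in either treatment (0.43 to 0.58), and in IL-1β also without replicate 2 of either group (0.61 and 0.59), with unstranded counts (0.60) and with only the groups compared (0.60). In untreated clone A1 it was called with a replicate block (0.27) and without the filter on low counts (0.22). In all, clone A2 had 5 of 9 members higher than wild-type and none lower in both treatments, beside 60.6% and 60.8% of all genes called, with 32.7% and 32% higher and 27.9% and 28.8% lower. With a replicate block or without the filter, H2-K1 was also called lower in clone A2 in both treatments (-0.27 to -0.22). Tap1 was called higher untreated (0.58 and 0.48) and lower in IL-1β (-0.60 and -0.70). These fits keep wild-type replicate 3, the highest of its group for both genes. In IL-1β its Tap1 level was 16.5 CPM, beside 4.37 and 6.72 CPM in replicates 1 and 2. The clone A2 libraries there held 4.57, 5.48 and 6.86 CPM of Tap1. H2-K1 in replicate 3 was at 195 CPM untreated and 275 CPM in IL-1β, against 160.1 and 213 CPM in replicate 2. For both genes the groups overlapped in both treatments. Clone A1 had 1 higher and 2 lower untreated, beside 55.4% of all genes called (30.3% higher and 25.1% lower), and 1 higher and 3 lower in IL-1β, beside 56.9% (30.1% higher and 26.9% lower). The untreated count for clone A1 rose to 7 of 9 with a replicate block (3 higher and 4 lower, beside 64.2% of all genes), to 6 without the filter (2 higher and 4 lower, beside 26.6%) and to 5 without wild-type replicate 1 (1 higher and 4 lower). Under the block and without the filter, the added lower members were Psmb8 and Tap1, with Tap1 at -0.66 and -0.76. Untreated wild-type Tap1 was at 2.93, 4.67 and 8.37 CPM, against 2.98 to 3.52 CPM in clone A1. The lower members of clone A1 were H2-K1 (-0.45 ± 0.14, edgeR FDR = 0.0116) and H2-D1 (-0.54 ± 0.13, FDR = 0.00101) untreated, and in IL-1β also Tap1 (-1.96 ± 0.38, FDR = 1.68e-04, and -1.25 at the least over the alternative fits). The untreated H2-K1 call was lost without clone A1 replicate 1 (-0.38) or untreated wild-type replicate 3 alone (-0.34), and it was kept without the replicate 3 libraries of both treatments (-0.35, FDR = 0.0159). Without the wild-type replicate 3 libraries, untreated clone A2 had 7 members higher than wild-type, with Tap1 (0.96, edgeR FDR = 0.00224) and H2-D1 (0.23, FDR = 0.0292) added, beside 57.1% of all genes called. The counts were 5 for clone A2 in IL-1β (beside 56.7%), and 3 untreated (52%) and 4 in IL-1β (53.2%) for clone A1.

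The clones carry the same genotype label, and were compared directly. Untreated clone A2 had 6 of 9 members higher than clone A1 and none lower, beside 15.8% of all genes higher and 16.7% lower, and in IL-1β 7 were higher and none lower, beside 15.1% and 15.6%. In either direction, 32.5% and 30.7% of all genes were called. The differences ran from 0.65 ± 0.13 for H2-D1 to 3.73 ± 0.50 for Psmb8 (edgeR FDR = 6.76e-06) in untreated cells. B2m (0.15, 95% interval -0.14 to 0.45) and Tapbp (0.53, 95% interval -0.01 to 1.07) were called in neither treatment in this fit, but Tapbp was in both with a replicate block (0.50 and 0.60) and without the filter on low counts (0.52 and 0.61), and B2m in IL-1β with the block (0.22).

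Ratios of inducible to standard proteasome subunits were taken per kilobase in each library, so their size depends on the joined exon lengths. Psmb8 stood at 0.773, 1.76 and 3.12% of Psmb5 in untreated wild-type, 11.7, 15.4 and 14.6% in Lkb1-/-, 0.760, 1.34 and 1.82% in clone A1 and 15.3, 18.9 and 25.0% in clone A2 MEFs. Psmb9 reached at most 1.11% of Psmb6 in any library. Psmb10 was at 13.2 ± 4.3% of Psmb7 in untreated wild-type and 10.9 ± 1.0% in Lkb1-/- MEFs (SD, n = 3), with overlapping libraries. Psmb10 itself was not called between these groups (-0.30 ± 0.24, or -0.10 without both wild-type replicate 3 libraries). The denominator moved too: Psmb5 fell from 18.6 ± 0.3 to 12.5 ± 0.4 CPM (log2 -0.57 ± 0.09, edgeR FDR = 1.81e-05).

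**Figure D4:**
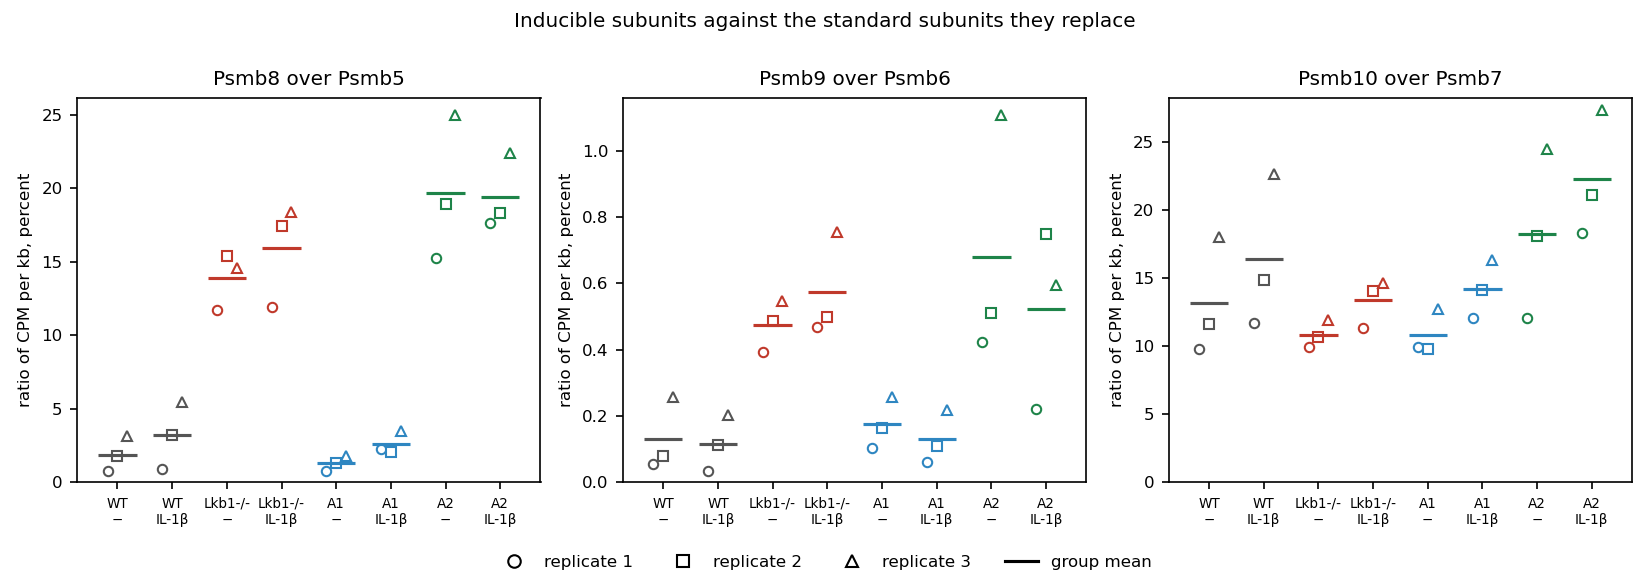
Each inducible catalytic subunit as a percentage of the standard subunit it replaces, from CPM per kb of exon, in the 24 libraries (symbols: replicate number; bars: group mean, n = 3; axes start at 0). Psmb8 over Psmb5 is at 11.7% or more in every Lkb1-/- and clone A2 library and at 5.46% or less in every wild-type and clone A1 library, while Psmb10 over Psmb7 overlaps between wild-type and Lkb1-/- MEFs.

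The counts for the rest of the pathway in untreated Lkb1-/- against wild-type MEFs stand beside 30.1% of all genes called higher and 25.8% lower. Of 6 other immunoproteasome and activator subunits, none was higher and 1 lower untreated: Psme3, of the nuclear PA28γ activator, at -0.85 ± 0.07. The interferon-inducible PA28 subunits Psme1 (-0.26 ± 0.17) and Psme2 (0.08 ± 0.16) were not called untreated, and both were higher in untreated clone A1 (0.45 and 0.48) and clone A2 (0.81 and 0.66) than in Lkb1-/- MEFs. Of the 3 standard catalytic subunits 2 were lower (Psmb5, and Psmb6 at -0.14 ± 0.06, or -0.21 without both wild-type replicate 3 libraries), and Psmb7 was not called (-0.03). Of 11 other 20S core subunits 1 was higher and 6 lower (0 and 6 without both wild-type replicate 3 libraries), led by Psma4, Psma5 and Psma2 at -0.35, -0.30 and -0.30. Among 12 genes of peptide trimming and loading, 1 was higher and 6 lower, with a median of -0.24 (1 and 7 without both wild-type replicate 3 libraries). They included Erap1, the aminopeptidase that trims peptides in the endoplasmic reticulum (111 ± 18 to 66.1 ± 5.5 CPM, -0.75 ± 0.21, edgeR FDR = 0.00406), Thop1, a cytosolic peptidase (-0.84 ± 0.07), and the chaperone Canx (-0.58 ± 0.08). Tapbpl, a second peptide editor, was not called (0.22 ± 0.22).

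Of 13 other heavy chains listed, 11 were tested, and 3 were higher and 1 lower in untreated Lkb1-/- MEFs, beside 30.1% and 25.8% of all genes, with a median of -0.16. Without both wild-type replicate 3 libraries the counts were also 3 and 1, with a median of 0.18. H2-Q7 (1.31 ± 0.35) and H2-T10 (0.88 ± 0.15) were higher, H2-Q4 (-0.71 ± 0.21) was lower, and H2-T23, which makes Qa-1 (-0.32 ± 0.33), and H2-M3, which presents formylated peptides (-0.24 ± 0.25), were not called. Without both wild-type replicate 3 libraries, H2-T23 was at 0.13 and H2-M3 at -0.07, again not called. These genes share sequence, and only 46.5% of the 50-base words in H2-T22 transcripts and 49.6% of those in H2-T10 occur in no other gene, so their uniquely mapped counts are uncertain. The shares were 90.4% for H2-K1, 87.2% for H2-D1 and 100% for B2m. Among class I-like molecules, Cd1d1, which presents lipids, had no count in any of the 6 wild-type libraries and 14.9 ± 2.4 CPM in untreated Lkb1-/- MEFs, at least 209-fold higher when each wild-type library is set to 3 counts. Fcgrt, the neonatal Fc receptor, was higher (2.73 ± 0.32), and Mr1, which presents vitamin metabolites, was lower (-2.12 ± 0.28). Of MHC class II genes, H2-Aa, H2-Ab1 and H2-Eb1 had at most 2 counts in a library, and the peptide exchange subunit H2-DMa was higher (1.01 ± 0.16).

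**Figure D5:**
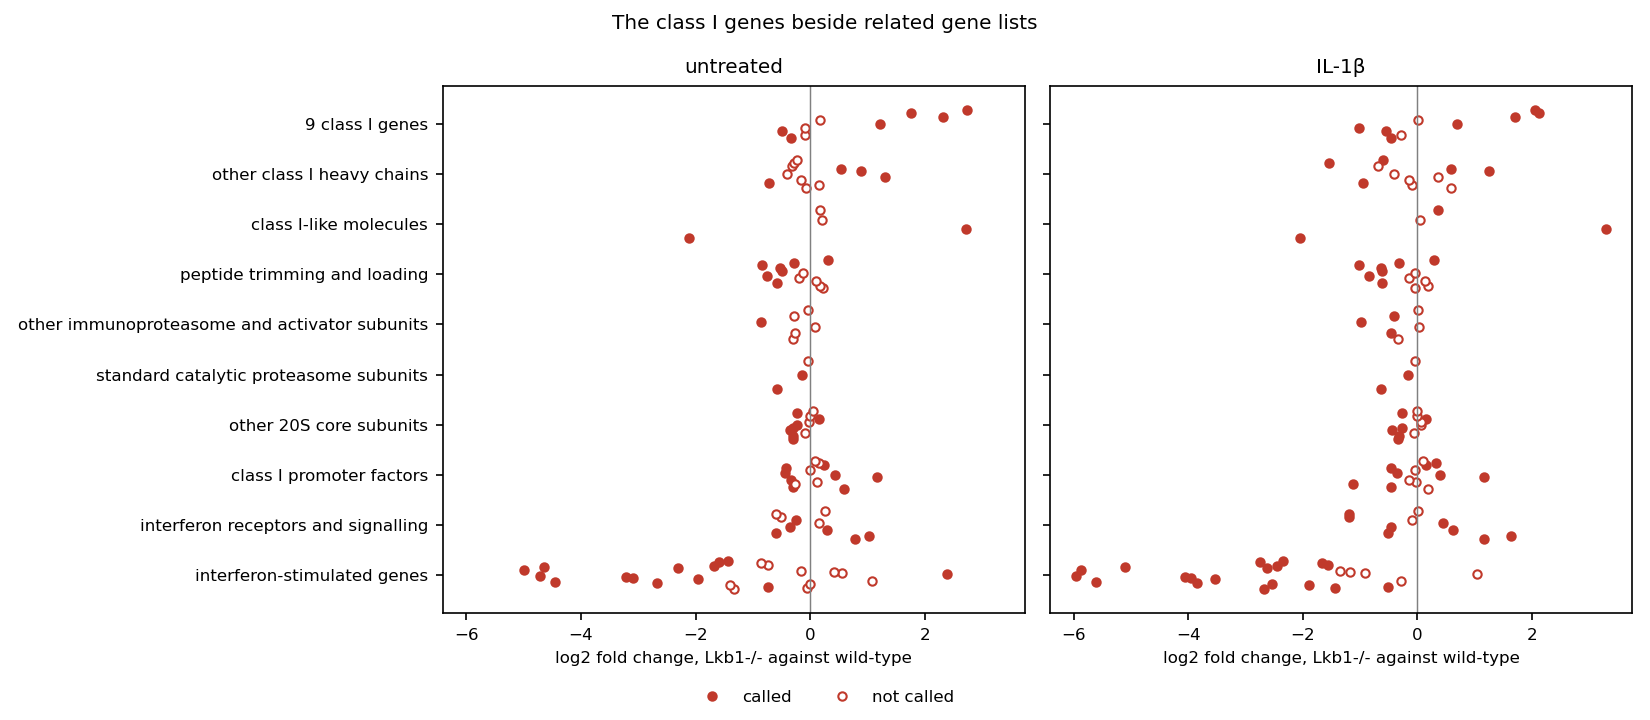
Log2 fold changes of Lkb1-/- against wild-type MEFs, untreated and in IL-1β, for the 9 class I genes and for 9 lists of related genes, 1 point per gene tested (filled: edgeR FDR under 0.05). Cd1d1 is left out because it had no count in wild-type MEFs; the class I genes reach from -0.49 to 2.73 untreated, while most interferon-stimulated genes lie below 0.

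Of the factors that act on class I promoters, 13 of 14 were tested and 4 were higher and 4 lower in untreated Lkb1-/- MEFs, with and without both wild-type replicate 3 libraries, near the 30.1% and 25.8% of all genes. Irf1, which binds the interferon element, was higher untreated (39.2 ± 6.5 to 58.7 ± 5.0 CPM, 0.58 ± 0.14, edgeR FDR = 0.0014) but not called in IL-1β (0.18 ± 0.14). Its relative Irf2 was lower (-0.31 ± 0.12), Rfxank, a subunit of the RFX complex, was higher (1.16 ± 0.09), Rfx5 was not called (0.13 ± 0.08), and the NF-Y subunit Nfyb was lower (-0.45 ± 0.06). Ciita, the class II counterpart of Nlrc5, had at most 3 counts in a library. Among receptors and signalling genes for interferons, Ifnar2 (1.03 ± 0.10) and Ifnar1 (0.78 ± 0.10) were higher and Ifngr1 (-0.59 ± 0.11) was lower.

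Of 24 interferon-stimulated genes, 1 was higher and 13 lower in untreated Lkb1-/- MEFs, with a median of -1.42, and none was higher and 19 lower in IL-1β, with a median of -2.50. Of all genes, 30.1% were higher and 25.8% lower untreated, and 30.2% and 27.1% in IL-1β. Among those with a mean log2 CPM above 0, the 3 largest untreated were Ifi44 (-4.64 ± 0.89), Usp18 (-3.21 ± 0.70) and Rsad2 (-3.09 ± 0.58), which were -2.93, -1.62 and -2.11 without both wild-type replicate 3 libraries. These counts rest in part on the wild-type replicate 3 libraries: without them, 6 genes were higher and 10 lower untreated, with a median of -0.33, and 2 were higher and 16 lower in IL-1β, with a median of -1.50. The calls for Nlrc5, Psmb8, Psmb9, Tap2 and B2m in Lkb1-/- against wild-type MEFs remained without these libraries in both treatments.

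The third comparison asks whether 6 hours of IL-1β changed these genes. In the edgeR fit of all libraries, with the filter on low counts, TMM scaling and no replicate block, none of the 9 was called in any genotype, beside 2.26% of all genes called in wild-type (1.53% higher), 4.74% in Lkb1-/- (2.65% higher), 1.99% in clone A1 and 5.68% in clone A2 MEFs. At an unadjusted p under 0.05 there were 3 members in wild-type (H2-K1, H2-D1 and Tap1), 1 in Lkb1-/- (H2-K1), none in clone A1 and 2 in clone A2 (H2-K1 and H2-D1), all higher, beside 2001, 2571, 1881 and 3076 of the 17522 genes tested. With a replicate block, edgeR called 4 in wild-type (H2-K1, H2-D1, Tap1 and Tapbp, at 0.42, 0.40, 0.75 and 0.35), 1 in Lkb1-/- (H2-K1, 0.31) and 2 in clone A2 (H2-K1, 0.43, and H2-D1, 0.27), beside 9.3%, 14.8% and 17.9% of all genes. With only the groups compared it called H2-K1 in Lkb1-/- (0.33) and in clone A2 (0.46), beside 5.57% and 1.54% of all genes, and with upper-quartile scaling H2-K1 in clone A2 (0.43), beside 7.84%. Without the filter on low counts it called 5, 1, 1 and 2 over the 4 genotypes, beside 2.59%, 3.88%, 2.47% and 4.47% of all genes. Without both wild-type replicate 3 libraries none was called in wild-type, beside 1.27% of all genes. DESeq2 called 1 in clone A2 (H2-K1) and none in the others. The median log2 fold changes of the 9 were 0.40, 0.13, 0.11 and 0.05 in this order of genotypes.

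The heavy chains had the clearest values. H2-K1 changed by 0.43 (95% interval 0.13 to 0.72) in wild-type, 0.31 (0.01 to 0.61) in Lkb1-/-, 0.14 (-0.16 to 0.44) in clone A1 and 0.44 (0.14 to 0.73, edgeR FDR = 0.0846) in clone A2 MEFs. In clone A2 the 3 libraries with IL-1β, at 169, 190.0 and 203 CPM, were all above the 3 without it, at 130.1, 138 and 146 CPM, and in Lkb1-/- MEFs 145, 172 and 163 CPM were above 121, 139 and 128 CPM. Of all genes, 15.4% in clone A2 and 20.3% in Lkb1-/- MEFs had groups that did not overlap. H2-D1 was at 0.40 (0.14 to 0.66) in wild-type and 0.27 (0.01 to 0.53) in clone A2 MEFs. B2m was close to 0 in every genotype, at 0.11, 0.04, -0.03 and 0.05, with intervals that reach no further than -0.32 and 0.40. Nlrc5 was at 0.44 (-0.18 to 1.06) in wild-type and -0.24 (-0.76 to 0.29) in Lkb1-/- MEFs. Tap1 was at 0.79 (0.03 to 1.55) in wild-type MEFs and at -0.14, -0.43 and -0.43 in the other genotypes. The wild-type value was 0.04 without the IL-1β library of replicate 3, 1.26 without the untreated one and 0.52 without both.

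Differences between genotypes in the response to IL-1β were tested as interaction terms, and the edgeR fit with the filter on low counts called none of the 9 in any of the 3 contrasts (beside 0.245%, 0.0285% and 0% of all genes; no member had an unadjusted p under 0.05, DESeq2 also called none, and without both wild-type replicate 3 libraries none was called for Lkb1-/- and wild-type MEFs, beside 0.1%). For Tap1 the response in Lkb1-/- MEFs was -0.93 relative to wild-type (95% interval -2.01 to 0.15), and it was called without that filter (-0.90, FDR = 0.0367, beside 0.943% of all genes), and for Nlrc5 it was -0.68 (-1.49 to 0.14). In the same cells IL-1β raised other genes of the lists, among them Nfkb1 (0.94 ± 0.09), the interferon receptor subunits Ifnar2 (1.02 ± 0.10), Ifngr2 (0.79 ± 0.12) and Ifnar1 (0.45 ± 0.10), the core subunit Psma6 (0.44 ± 0.08) and the heavy chain H2-T10 (1.04 ± 0.14) in Lkb1-/- MEFs.

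The genes whose levels over the 24 libraries were most like the mean of the 9 standardized members, among 12509 genes with a mean log2 CPM above 0, were Hfe (r = 0.90), Nfatc2ip (0.89), Tmf1 (0.88), Slfn9 (0.86) and Fah (0.86). Hfe is itself a class I-like molecule. Among the members, Tapbp (0.89) and Tap2 (0.88) were nearest to this mean, and B2m (0.48) and Nlrc5 (0.50) farthest. Nlrc5 was most like Nol4l (r = 0.97), Usp35 (0.97) and Xdh (0.96), and its r with H2-K1 was -0.30 and with H2-D1 -0.02. Tap2 and Psmb9 (0.94) and Tap2 and Psmb8 (0.91) were the closest pairs of members. These correlations describe 24 libraries of 4 genotypes, so differences between the lines enter every one of them, and carry no test.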

How the data were processed

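RNA-seq of 24 libraries was analysed in 8 groups of 3. The authors trimmed paired reads with Trim Galore 0.6.0, aligned them to GRCm38.p6 with GENCODE annotation using STAR 2.7.8a, and deposited counts of uniquely mapped read pairs per gene, without normalization. The labels and the study's methods name different library kits, so the kit is not settled. Lines that name no gene held 26.7 to 34.4% of pairs and were left out. The second stranded column was used, which held 95.5 to 96.0% of stranded assignments. Symbols and positions came from GENCODE M21 on the same build, and 50-base words from its transcripts.

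Low counts were removed with filterByExpr over the 8 groups (a minimum count of 10 and a total of 15), which left 17522 genes, and TMM factors were computed. The quasi-likelihood test of edgeR 4.0.16 (limma 3.58.1, R 4.3.3) took all 24 libraries together with a term for each group and 19 contrasts, and a call needed an FDR (Benjamini-Hochberg) under 0.05. SE is the log2 fold change over the root of F, and levels are mean ± SD (n = 3). A floor of 3 counts covers counting error only. On simulated data with 100 genes changed by log2 1 and 100 by log2 2 in the untreated comparison of Lkb1-/- and wild-type MEFs, all were called, with 8 false calls among 16829 genes. Every simulated gene had the same dispersion, only well-counted genes were changed, and far fewer changed than were called in the data. The simulation therefore says nothing on genes as scarce as Psmb9 or with a wider spread.

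No 2 libraries had identical counts. The alternatives were unstranded counts, RLE and upper-quartile scaling, no filter, DESeq2 1.42.0, fits of only the groups compared, a replicate block, and leaving out each library. Leaving out both wild-type replicate 3 libraries was added after the data were seen. The members and lists were chosen with earlier results of these data known. The genes named were the 9 members, a set of pathway genes (1 of them is not reported here), up to 3 called genes of each other list with the largest change and a mean log2 CPM above 0 in Lkb1-/- against wild-type untreated and in IL-1β against untreated Lkb1-/- MEFs, and the 5 and 3 genes most alike. H2-T22, Kdr, other marker and interferon genes given by their counts, and the pairs of members with an r were picked after their values were seen.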

Additional observations from a re-analysis of the deposited data

Results flagged for a closer look

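The clones, which carry the same genotype label, differed from each other in 6 of 9 genes untreated and in 7 of 9 in IL-1β (beside 32.5% and 30.7% of all genes) by the edgeR test of clone A2 against clone A1, which is also the test of the difference between their values against the same Lkb1-/- libraries. The log2 differences, clone A2 minus clone A1, were 0.65 for H2-D1, 1.26 for Tap1, 1.22 for Tap2, 3.73 for Psmb8, 1.996 for Psmb9 and 0.97 for Nlrc5 in untreated cells. In IL-1β they were 0.50 for H2-K1, 0.78 for H2-D1, 1.25 for Tap1, 1.08 for Tap2, 3.06 for Psmb8, 2.09 for Psmb9 and 0.75 for Nlrc5. All 6 untreated calls held in every alternative fit; in IL-1β those of H2-K1, Tap1 and Nlrc5 were lost in 1, 3 and 4 of 6 fits without 1 library. With 1 clone of each kind, the cause was not tested.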

How the results depend on the processing

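No result changed direction past the threshold, and of 54 calls of a member in a comparison 38 held under every alternative and 16 were lost under 1 or more. The counts of called members that moved by over 1.5 times were as follows. Without the filter on low counts, 7 were called in untreated clone A1 (beside 16.4% of all genes) and 4 in untreated clone A2 (15.1%) against Lkb1-/- MEFs, 4 in clone A2 in IL-1β (15.3%), 6 in untreated clone A1 against wild-type (26.6%), and for IL-1β against untreated 5 in wild-type (2.59%), 1 in Lkb1-/- (3.88%), 1 in clone A1 (2.47%) and 2 in clone A2 (4.47%), with 1 for the difference in response of Lkb1-/- and wild-type MEFs (0.943%). With a replicate block, the genotype counts were 7 (48.1%), 5 (45.9%), 6 (46.6%) and 7 (64.2%), and those for IL-1β 4 in wild-type (9.3%), 1 in Lkb1-/- (14.8%) and 2 in clone A2 (17.9%). With only the groups compared, they were 7 (43%), 4 (28.5%) and 3 (27.3%) against Lkb1-/- MEFs, and 1 in Lkb1-/- (5.57%) and 1 in clone A2 (1.54%) for IL-1β. DESeq2 gave 2 in clone A2 against Lkb1-/- MEFs in IL-1β (35%) and 1 for IL-1β in clone A2 (7.81%), where upper-quartile scaling also gave 1 (7.84%). The cause was not tested.

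Same-numbered libraries had correlated deviations of 0.0355 to 0.589 in 84 pairs (median 0.222), 69 of them over 0.1. Of 168 pairs with different numbers, 8 were over 0.1, and their median was -0.115. By mean correlation, 23 of 24 libraries were closest to their own number. Same-numbered libraries thus varied together in part, and the fit without a block counts this in its spread. As not every pair passed 0.1, the numbers were not taken to pair the samples in that fit. Calls gained or lost under the block are not read as an effect of its size.

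Without 1 library, the number of called members was 4 to 5 untreated and 5 to 7 in IL-1β for Lkb1-/- against wild-type, 2 to 4 in both treatments for clone A1 and 1 to 2 for clone A2 against Lkb1-/-, 2 to 5 and 4 to 5 for clone A1 and 4 to 6 and 4 to 6 for clone A2 against wild-type, 6 to 7 and 5 to 7 between the clones, and 0 to 2 for IL-1β in wild-type. Upper-quartile scaling moved the median of all genes in IL-1β from 0.03 to 0.14 for Lkb1-/- and from 0.01 to 0.12 for clone A1 against wild-type. Psmb9 and Psmb8 had the lowest counts of the members, 3 to 122 and 13 to 508 in a library, and the part of this in their results was not tested.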
